A study of Mus musculus with 22 samples.

Results

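The genes of the cohesin complex and of its main regulators were followed across a cell cycle re-entry experiment. The set held 10 genes, Smc1a, Smc3, Rad21, Stag1, Stag2, Nipbl, Wapl, Pds5a, Pds5b and Esco2, each matched by its symbol in the deposited expression table. All 10 were among the 11208 genes of that table, and all 10 passed the filter on low values. NIH/3T3 is an established mouse fibroblast line, and in both sublines used here a doxycycline-inducible construct was stably integrated: one subline, called the E2F1 line, carries it for the transcription factor E2F1, and the other, the EV line, carries the empty vector. All cells were held for 48 h in 0.25% serum, which brings fibroblasts to a resting state. The E2F1 line was sampled at 0, 2, 6 and 12 h of 500 ng/ml doxycycline. The EV line was sampled at these times of doxycycline too, and also at 2, 6 and 12 h of 10% serum without doxycycline. These 11 groups had 2 libraries of polyadenylated RNA each, 22 in all. The EV 0 h libraries served here as the starting point of both the doxycycline and the serum series of that line, so the 2 series share them. The authors' deposited serum comparisons name a serum 0 h group, a label that no sample carries. That group was taken to be the EV 0 h libraries. Whether each line was a clone or a pool, and whether replicates were separate cultures, is not given in the sources used here. P-values therefore measure the spread between these libraries, which may be technical.

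Cohesin is a ring-shaped protein complex that holds sister chromatids together from DNA replication until mitosis and folds chromatin into loops. Smc1a and Smc3 encode the long arms of the ring, Rad21 the subunit that closes it, and Stag1 and Stag2 the alternative subunits bound to Rad21. Nipbl encodes the loader of the ring, Wapl the factor that releases it from DNA, Pds5a and Pds5b a pair of paralogs that help both release and maintenance, and Esco2 the acetyltransferase that acts on Smc3 at the replication fork to make cohesion lasting. E2F factors are known for driving genes of DNA replication and cell cycle progression in cells that leave the resting state.

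On GRCm38 (mm10) with GENCODE M21, Smc1a lay on the X chromosome at 152016428 to 152062694 and Stag2 on the X chromosome at 42149317 to 42277185. Smc3 lay on chromosome 19 at 53600398 to 53645833, Rad21 on chromosome 15 at 51962240 to 51991747 and Nipbl on chromosome 15 at 8290617 to 8444463. Stag1 was on chromosome 9 at 100597798 to 100959375, Wapl on chromosome 14 at 34673928 to 34747983 and Esco2 on chromosome 14 at 65819038 to 65833994. Pds5a and Pds5b were both on chromosome 5, at 65605721 to 65698273 and at 150673739 to 150810690. Exons of Stag2 overlapped Gm37564, and exons of Pds5a overlapped Gm42727 and Gm42729, all on the opposite strand. Whether the counting used strand is not given in the sources used here, so reads of these partners cannot be told apart and both genes are uncertain to that extent. No stretch of 100 bases in the transcripts of the other members occurred in another gene, and in Pds5a 0.425% of such stretches did.

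Promoter sequences came from RefSeq on GRCm38.p6, as 250 bases before and 50 bases after a gene's start, and were matched for 6 of the 10 members. Rad21, Stag2, Nipbl and Esco2 had no entry of this length under their symbols. The windows were searched on both strands for an E2F-type site, spelled TTTCCCGC, TTTCGCGC, TTTGCCGC or TTTGGCGC, and for the same letters without the first T. The longer form occurred in Pds5a, Stag1 and Smc1a. Pds5b held only the shorter form, TTGGCGC, and Smc3 and Wapl held neither. Every longer match contains a shorter one. The longer form was in 2.26% of all 32851 promoters of this length and in 4.21% of the 11012 promoters of measured genes, and the shorter one in 9.57% and 17.3%. The stretches of 30 bases around these sites are shown because the 4 genes differ in when and how strongly they rose below, with the matching letters in capitals and each sequence written 5′ to 3′ on the strand of its gene.
Pds5a, chr5:65698324-65698353, minus strand: ggcaggtcttgGCGCCAAAcgggtggcggc
Pds5b, chr5:150673774-150673803, plus strand: cggagctgctcTTGGCGCcattttgaagcg
Stag1, chr9:100643420-100643449, plus strand: aaaaggccacgTTTCCCGCgccgctgctgc
Smc1a, chrX:152016448-152016477, plus strand: cggcttgcactgcgctaTTTCCCGCgcggg

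In Pds5a the capitals are the site read on the other strand, beginning 106 bases before the start used by RefSeq. That start lies inside the GENCODE span, whose edge is at 65698273, and the site lies outside the span. The same stretch also held a shorter match, TTGGCGC, on the gene's own strand. The Stag1 site began 17 bases before the start used by RefSeq, which lies inside the GENCODE span of the gene. The Pds5b site and its TTTGAA, given below, also lie inside the GENCODE span, which begins at 150673739, although both come before the start used by RefSeq. The Smc1a site began at base 38 after the start, so it lay in transcribed sequence. A cell cycle homology element, TTTGAA or TTCGAA, occurred only in the window of Pds5b among the 6, where TTTGAA began 32 bases before the start, against 13.8% of the promoters of measured genes. A match describes letters and not binding, and whether these sites take part in the changes below was not tested. For comparison, the 213 bases before the first annotated base of Pds5a, the member with the largest rise at 6 h, are given with all E2F-type matches in capitals beside 250 bases before the start of Smc3, which had also risen at 6 h and held none.
Pds5a, chr5:65698274-65698486, minus strand: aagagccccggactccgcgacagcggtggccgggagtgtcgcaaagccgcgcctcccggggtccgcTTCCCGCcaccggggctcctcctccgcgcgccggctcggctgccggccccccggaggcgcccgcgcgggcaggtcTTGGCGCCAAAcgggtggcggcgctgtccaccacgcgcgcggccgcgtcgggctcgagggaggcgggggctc
Smc3, chr19:53600146-53600395, plus strand: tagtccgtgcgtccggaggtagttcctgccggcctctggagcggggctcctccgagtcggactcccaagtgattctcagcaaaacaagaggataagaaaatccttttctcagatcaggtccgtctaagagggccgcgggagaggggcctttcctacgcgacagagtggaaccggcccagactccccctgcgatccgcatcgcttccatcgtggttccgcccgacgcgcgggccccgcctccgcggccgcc

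The deposited values are normalized counts rounded to whole numbers, with totals from 34014608 to 46057140 per library. The highest totals were those of the serum 2 h libraries. The mouse gene E2f1 stood at 1703 and 1637 normalized counts in the E2F1 line at 0 h, at 1535 and 1755 after 2 h, at 3806 and 3602 after 6 h and at 2683 and 2845 after 12 h, log2 changes of -0.02, 1.15 and 0.73 (limma adjusted p 0.946, 9.61e-08 and 1.65e-05). A construct of another sequence need not be counted under this gene. The highest E2f1 value of any library, 4615 normalized counts, was in the EV line. Of 3 check genes, E2f1, Ccne1 and Mcm3, limma called 1, not E2f1, higher and 0 lower at 2 h in the E2F1 line. The largest log2 change there was 1.33. At 6 and 12 h all 3 were called higher. After 12 h of serum in the EV line all 3 were called higher too. The 12 h change was larger under E2F1 than under serum for 1 of them and smaller for 2. Among all genes these shares were 25.0% and 23.8%. The 2 h difference from the EV line was called for 0 of the 3. All 11 fibroblast markers of a fixed list were in the table, and their summed level ran from 690769 normalized counts in an E2F1 12 h library to 1414946 in an EV 2 h doxycycline library. Libraries of 2 h stood apart from the rest of their line. Over 10 genes whose level in the E2F1 line exceeded that in the EV line at least 8-fold at 0, 6 and 12 h, the summed level was 492 to 1034 in the EV libraries of other times and 2729 to 3714 in the EV 2 h libraries. In the E2F1 line it was 11433 to 15005 at other times and 9075 to 10302 at 2 h. Ddx3y, one of these genes and singled out after its values were seen, was at 9 and 4 normalized counts in the EV line at 0 h, 103 and 71 at 2 h of doxycycline and 132 and 170 at 2 h of serum, and in the E2F1 line at 580 and 521 at 0 h and 329 and 316 at 2 h. The 2 h libraries of both lines thus lay between the lines in these genes. Whether they hold RNA or cells of the other line was not tested, and every 2 h value below is that of a library so labelled. The part of this in the 2 h results was not tested either, no 2 h comparison can be made without these libraries, and the other comparisons were also fitted without them.

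At rest the members differed widely in abundance. Per kilobase of exon, the starved E2F1 line had 2460 normalized counts of Rad21, 1220 of Smc3 and 1100 of Smc1a, and the starved EV line had 2390, 1230 and 912. Stag2 (693), Nipbl (653), Wapl (487) and Pds5b (459) came next in the E2F1 line on the same scale, followed by Pds5a (205), Stag1 (183) and Esco2 (68.6). Per length, Stag2 thus stood above its paralog Stag1 and Pds5b above Pds5a. Length here is that of all annotated exons of a gene joined, 19.34 kilobases for Pds5a and 9.84 for Pds5b. Mean normalized counts of these 2 genes in the starved E2F1 line were 3959 and 4517.5. Their order per length therefore depends on the length used, and the transcripts in use were not determined. The starved lines were compared because every later comparison starts from them. Limma called 1 of 10 members, against 8.86% of all genes called higher and 6.17% lower. Smc1a was at 6284 and 6400 normalized counts in the E2F1 line and at 4799 and 5720 in the EV line. Its log2 difference was 0.28 (SE 0.08, limma adjusted p 0.0337), and the libraries did not overlap. This call was lost without any of 3 of the 4 libraries, with 0.29 (adjusted p 0.117) without E2F1 0 h replicate 1, 0.26 (adjusted p 0.137) without replicate 2 and 0.15 (adjusted p 0.339) without EV 0 h replicate 1, and also without all 2 h libraries (adjusted p 0.0642). Esco2 was at 469 and 443 in the E2F1 line and at 211 and 421 in the EV line (log2 difference 0.61, limma adjusted p 0.258), and the 2 EV libraries lay far apart. Of 19 further pathway genes described below, 3 were called higher in the E2F1 line and 0 lower, with a median log2 difference of 0.40. Limma called 0 of 8 condensin genes, but all 8 had a positive difference (median 0.39). For 8 SMC5/6 genes the median was -0.02, with 0 called.

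**Figure D1:**
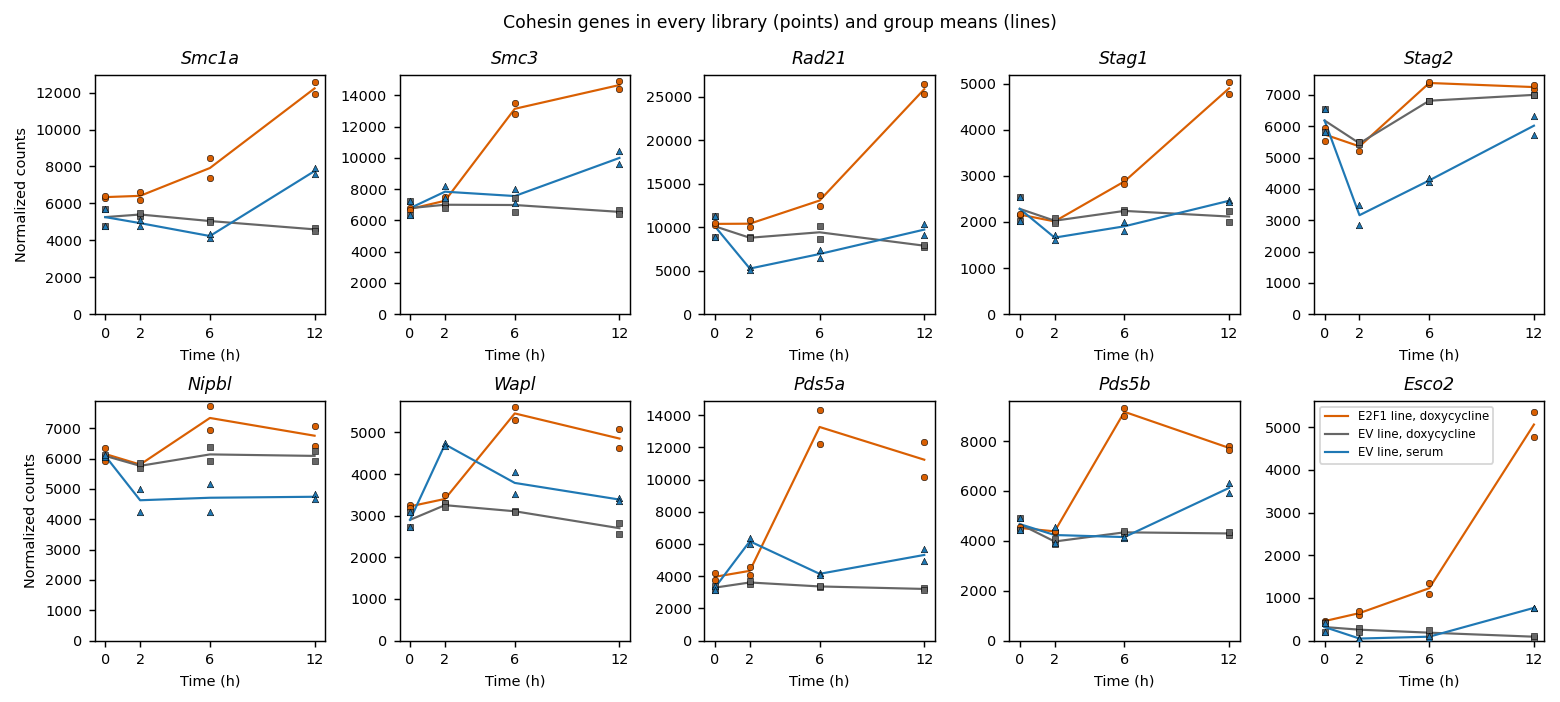
Normalized counts of the 10 genes (vertical axis, from 0, a scale of its own for each gene) against hours of treatment, for the E2F1 line with doxycycline, the EV line with doxycycline and the EV line with serum; points are libraries and lines join group means. Esco2 reached 5354 and 4774 in the E2F1 12 h libraries, and Stag2 fell to 3478 and 2843 in the serum 2 h libraries.

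What induced E2F1 did to resting cells was the first question of the design. After 2 h of doxycycline in the E2F1 line limma called no member changed. After 6 h all 10 members were higher, led by Pds5a (3.34-fold), Esco2 (2.67-fold), Pds5b (2.03-fold), Smc3 (1.95-fold) and Wapl (1.69-fold). After 12 h 9 members were higher, now led by Esco2 (11.1-fold), Pds5a (2.83-fold), Rad21 (2.49-fold), Stag1 (2.27-fold) and Smc3 (2.18-fold). Folds and changes are on the log2(value + 1) scale from limma, which understates changes of low genes.

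At 2 h limma called 0 of 10 members, with 0 at an unadjusted p under 0.05, against 0.865% of all genes called higher and 0.990% lower. Log2 changes ran from -0.10 to 0.49. The upper end was Esco2, at 591 and 695 normalized counts against 469 and 443 at 0 h (limma adjusted p 0.566). At 6 h the 10 of 10 members called higher stood against 28.8% of all genes, with 0 members and 22.9% of genes lower, and their median log2 change was 0.59 against -0.03 over all genes. At 12 h it was 9 of 10 against 31.8% (0 members and 29.7% lower), with a median of 1.03 against -0.02. Under quantile normalization 5 of the 6 h calls remained (Smc3, Wapl, Pds5a, Pds5b and Esco2), while Smc1a (0.06, adjusted p 0.528), Rad21 (0.16, adjusted p 0.178), Stag1 (0.22, adjusted p 0.0557), Stag2 (0.12, adjusted p 0.233) and Nipbl (-0.01, adjusted p 0.932) did not pass. The same scaling ended the 12 h call of Stag2 (0.15, adjusted p 0.131), and equal library totals ended the 6 h calls of Rad21 (0.21, adjusted p 0.0822) and Nipbl (0.14, adjusted p 0.212). Fibroblast markers moved with this series: 4 of 11 were lower at 6 h and 10 of 11 at 12 h, with a median log2 change of -0.79 at 12 h, and their part in the members' changes was not tested. In bulk RNA a change in the share of cells that express a gene and a change in RNA per cell cannot be told apart.

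Of the ring subunits, Smc3 changed early and Rad21 late. Smc3 was at 6772 and 6698 normalized counts at 0 h, at 13488 and 12798 after 6 h and at 14908 and 14420 after 12 h. Its libraries rose clear of the 0 h level by 6 h and moved little afterwards. The log2 change was 0.96 at 6 h (SE 0.09, limma adjusted p 3.96e-08) and 1.12 at 12 h (SE 0.09, adjusted p 4.79e-09), and the step from 6 to 12 h was 0.16 (adjusted p 0.162). Rad21, whose product closes the ring and is cut at anaphase, was at 10248 and 10539 at 0 h, 13663 and 12494 at 6 h and 26500 and 25276 at 12 h. It rose by 0.33 on the log2 scale at 6 h (SE 0.11, adjusted p 0.0142) and by 1.32 at 12 h (SE 0.11, adjusted p 8.2e-09), with a step of 0.99 between them (adjusted p 4.91e-06). Smc1a followed the same late course, at 8476 and 7359 after 6 h and 12558 and 11899 after 12 h, against 6284 and 6400 at 0 h. It rose by 0.32 (SE 0.08, adjusted p 0.00422) and then 0.95 (SE 0.08, adjusted p 2.69e-08), and the step was 0.63 (adjusted p 2.98e-05). The 6 h calls of Rad21 and Smc1a were lost without E2F1 6 h replicate 1, at 0.27 (adjusted p 0.117) and 0.21 (adjusted p 0.0888), and that of Rad21 also without E2F1 0 h replicate 1, at 0.31 (adjusted p 0.07).

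The alternative subunits parted in the same series. Stag1 was at 2145 and 2176 normalized counts at 0 h, 2940 and 2818 at 6 h and 5025 and 4770 at 12 h. All 12 h libraries lay above all earlier ones. The log2 change was 0.41 at 6 h (SE 0.09, limma adjusted p 0.00144) and 1.18 at 12 h (SE 0.09, adjusted p 8.71e-09), with 0.77 between these times (adjusted p 1.65e-05). Stag2 was at 5516 and 5958 at 0 h, 7339 and 7420 at 6 h and 7177 and 7320 at 12 h. Its rise was small and complete by 6 h, with log2 changes of 0.36 (SE 0.09, adjusted p 0.00191) and 0.34 (SE 0.09, adjusted p 0.00246) and -0.03 between the times (adjusted p 0.837).

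Among the factors that load and release the ring, Nipbl changed least. It stood at 5939 and 6368 normalized counts at 0 h, 7733 and 6952 at 6 h and 7093 and 6420 at 12 h. The 6 h rise of 0.25 (SE 0.10, limma adjusted p 0.0331) was lost without E2F1 6 h replicate 1 (0.18, adjusted p 0.242), without E2F1 0 h replicate 1 (0.2, adjusted p 0.179) and without E2F1 0 h replicate 2 (0.3, adjusted p 0.0508). At 12 h its log2 change was 0.13 (adjusted p 0.231). Wapl, the release factor, was at 3259 and 3189 at 0 h, 5607 and 5306 at 6 h and 5085 and 4621 at 12 h. Its libraries were highest at 6 h, at a log2 change of 0.76 (SE 0.08, limma adjusted p 5.15e-07), and stood at 0.59 at 12 h (SE 0.08, adjusted p 7.42e-06), and the step of -0.17 between them did not pass (adjusted p 0.118).

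The Pds5 paralogs had the clearest 6 h response. Pds5a was at 4183 and 3735 normalized counts at 0 h, 4099 and 4560 at 2 h, 14330 and 12203 at 6 h and 12312 and 10154 at 12 h. The 0 and 2 h libraries overlapped and the 6 and 12 h libraries lay far above them. Its log2 change was 1.74 at 6 h (SE 0.10, limma adjusted p 1.89e-10) and 1.5 at 12 h (SE 0.10, adjusted p 1.24e-09), with -0.24 between them (adjusted p 0.072). Pds5b was at 4478 and 4557 at 0 h, 9342 and 9007 at 6 h and 7806 and 7646 at 12 h. It rose by 1.02 at 6 h (SE 0.08, adjusted p 4.06e-09) and by 0.77 at 12 h (SE 0.08, adjusted p 1.07e-07). It was the one member called lower between 6 and 12 h, where it fell by 0.25 on the log2 scale (adjusted p 0.0178). That fall was lost without E2F1 12 h replicate 1 (-0.26, adjusted p 0.0541), without E2F1 12 h replicate 2 (-0.23, adjusted p 0.0871) and without E2F1 6 h replicate 1 (-0.22, adjusted p 0.103).

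Esco2 had the widest range of the set. In the E2F1 line it was at 469 and 443 normalized counts at 0 h, 1351 and 1102 at 6 h and 5354 and 4774 at 12 h. Every later group lay above the one before it. The log2 change was 1.42 at 6 h (SE 0.35, limma adjusted p 0.00242) and 3.47 at 12 h (SE 0.35, adjusted p 1.27e-07), with 2.05 between them (adjusted p 0.000251). Per kilobase of exon it went from 68.6 normalized counts at 0 h, the lowest of the set, to 762 at 12 h, beside Pds5b at 785 and Wapl at 733. The authors' deposited table for 12 h listed Esco2 with a log2 fold change of 3.48 and an adjusted p of 2.18e-154. It was the only member listed there, and those tables hold only genes that moved by about 2 or more on the log2 scale. From 6 to 12 h, limma called 4 members higher (Esco2, Rad21, Stag1 and Smc1a) and 1 lower (Pds5b), against 15.1% of all genes higher and 20.2% lower.

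**Figure D2:**
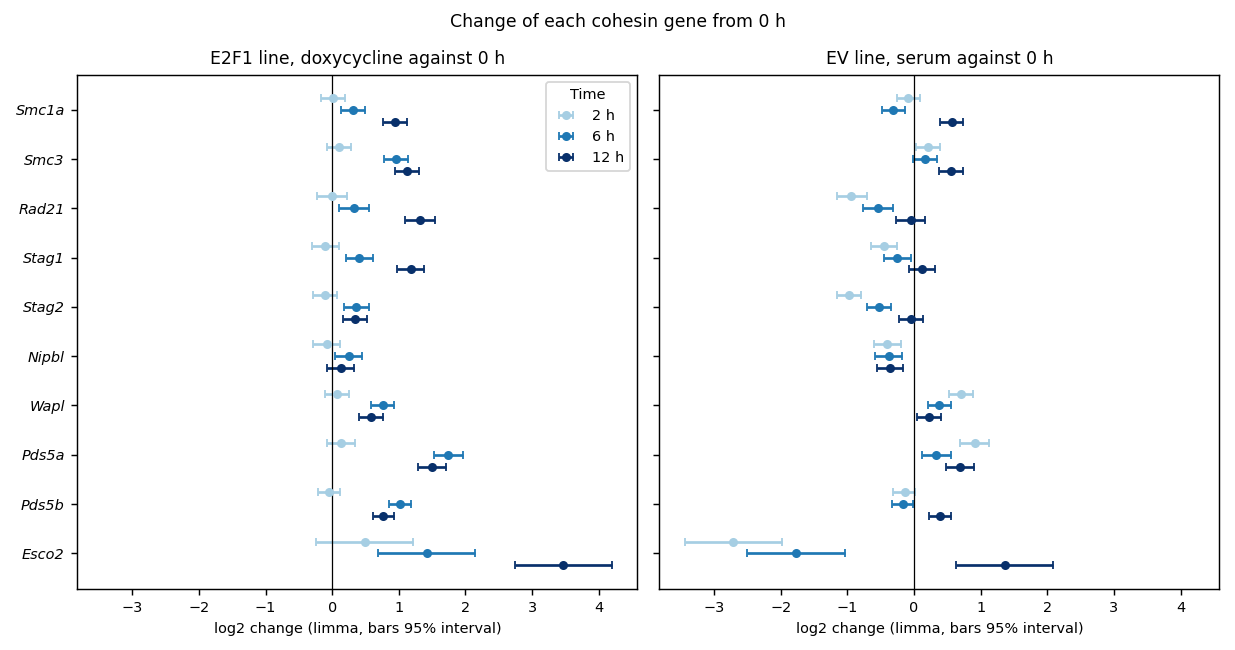
Log2 change from 0 h of each gene (horizontal axis, limma on log2(value + 1), bars are 95% intervals) at 2, 6 and 12 h, in the E2F1 line with doxycycline (left) and the EV line with serum (right). At 6 h the changes ran from 0.25 for Nipbl to 1.74 for Pds5a on the left, and from -1.77 for Esco2 to 0.38 for Wapl on the right.

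The EV line given doxycycline measured the drug, the vector and further starvation without E2F1. Limma called 0 of 10 members at 2 h and 0 at 6 h, with 1 at an unadjusted p under 0.05 at each time (Pds5b and Esco2), against 4.93% of all genes higher and 2.43% lower at the first time, and 0.134% and 0% at the other. At 12 h 1 member was lower and 0 higher, against 3.42% and 0.749% of all genes. This was Esco2, at 70 and 110 normalized counts after 12 h and 211 and 421 at 0 h, with 301 and 208 at 2 h and 133 and 236 at 6 h. All 12 h libraries lay below all 0 h libraries, a fall of 3.37-fold (log2 change -1.75, SE 0.35, limma adjusted p 0.0079). The call depended on single libraries: without EV 0 h replicate 2 it was -1.26 (adjusted p 0.245) and without EV 12 h replicate 1 it was -1.43 (adjusted p 0.136). With only these groups in the fit its adjusted p was 0.0823. Rad21 was at 7758 and 8011 at 12 h against 8940 and 11284 at 0 h (-0.35, adjusted p 0.0728).

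Whether the lines responded differently to doxycycline was tested by subtracting, gene by gene, the change seen in the EV line. E2F1 was induced in the E2F1 line only, so E2F1 and the line cannot be told apart. At 2 h limma called 0 of 10 members, with 0 at an unadjusted p under 0.05, against 0.0535% of all genes higher and 0.0892% lower. At 6 h 8 members had the larger change in the E2F1 line and 0 the smaller, against 22.2% and 12.3% of all genes. At 12 h these were again 8 and 0, against 27.3% and 23.3%. The 12 h difference was 5.22 for Esco2 (SE 0.49, limma adjusted p 1.4e-07), 1.67 for Rad21 (SE 0.15, adjusted p 8.17e-08), 1.54 for Pds5a (SE 0.14, adjusted p 1.35e-07) and 1.28 for Stag1 (SE 0.13, adjusted p 4.28e-07). It was 1.17 for Smc3, 1.14 for Smc1a, 0.89 for Pds5b and 0.69 for Wapl, with adjusted p of at most 8.97e-05. Stag2 and Nipbl were the exceptions at both times. The difference for Stag2 was 0.22 at 6 h (95% interval -0.04 to 0.48, adjusted p 0.171) and 0.16 at 12 h (-0.10 to 0.41, adjusted p 0.302). For Nipbl it was 0.24 at 6 h (-0.04 to 0.53, adjusted p 0.172) and 0.13 at 12 h (-0.15 to 0.42, adjusted p 0.426). Stag2 in the EV line itself had 6819 and 6807 normalized counts at 6 h of doxycycline and 7003 and 6997 at 12 h, against 5815 and 6547 before it (log2 change at 12 h 0.18, adjusted p 0.296).

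At 6 h the differences of Smc1a (0.37, limma adjusted p 0.021), Rad21 (0.43, adjusted p 0.0337) and Stag1 (0.43, adjusted p 0.0179) rested on single libraries. Without E2F1 6 h replicate 1 they were 0.27 (adjusted p 0.124), 0.36 (adjusted p 0.125) and 0.4 (adjusted p 0.0628), and without EV 0 h replicate 2 they were 0.24 (adjusted p 0.128), 0.26 (adjusted p 0.193) and 0.27 (adjusted p 0.12), so that 5 members remained. Quantile normalization, equal totals and the fit of only these groups also left 5. Leaving out other libraries of these groups lost some of the 3: Smc1a without E2F1 0 h replicate 1 (adjusted p 0.0569) or EV 6 h replicate 2 (adjusted p 0.0582), Stag1 without EV 6 h replicate 2 (adjusted p 0.0511), and Rad21 without E2F1 0 h replicate 1 (adjusted p 0.0847), E2F1 0 h replicate 2 (adjusted p 0.0632) or EV 6 h replicate 1 (adjusted p 0.157). Rad21 was also lost without all 2 h libraries (adjusted p 0.0583).

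Serum, the natural stimulus to leave the resting state, moved the members in a different order. After 2 h in the EV line 5 members were lower and 3 higher, after 6 h 6 were lower and 2 higher, and after 12 h 6 were higher and 1 lower. The strongest early falls were those of Esco2 (6.53-fold), Stag2 (1.96-fold) and Rad21 (1.91-fold) at 2 h. Pds5a (1.88-fold) and Wapl (1.63-fold) rose at the same time. Among all genes, 37.5% were called higher and 33.5% lower at 2 h, 36.5% and 31.0% at 6 h, and 36.0% and 29.7% at 12 h. The median log2 change of the members was -0.27, -0.28 and 0.31, against 0.03, 0.03 and 0.05 over all genes. Fibroblast markers moved here as well, with 7 of 11 lower and 2 higher at 12 h, and their part was not tested.

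Esco2 was at 59 and 34 normalized counts after 2 h of serum, 65 and 116 after 6 h and 758 and 774 after 12 h, against 211 and 421 at 0 h. Both early groups lay below the 0 h libraries and the 12 h libraries above them. In time order it changed by -2.71 (SE 0.35, limma adjusted p 1.38e-06), -1.77 (SE 0.35, adjusted p 0.000207) and 1.36 (SE 0.35, adjusted p 0.00225), with a step of 3.13 from 6 to 12 h (adjusted p 1.42e-06). Without EV 0 h replicate 1, the lower of the 2, the 12 h change was 0.86 (adjusted p 0.064). The authors' deposited table for 2 h of serum listed Esco2 with a log2 fold change of -2.71 and an adjusted p of 1.45e-06.

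The subunits of the ring differed from each other under serum. Rad21 was at 5459 and 5048 normalized counts at 2 h, 6438 and 7417 at 6 h and 10354 and 9118 at 12 h, against 8940 and 11284 at 0 h. It fell by 0.94 on the log2 scale at 2 h (SE 0.11, limma adjusted p 2.59e-07) and by 0.54 at 6 h (SE 0.11, adjusted p 0.000195), and was back among the 0 h libraries at 12 h (-0.05, adjusted p 0.704). Smc3 was at 8218 and 7463 at 2 h, 7102 and 8022 at 6 h and 10418 and 9583 at 12 h, against 6352 and 7224 at 0 h. Its 12 h rise was 0.56 (SE 0.09, adjusted p 1.7e-05). The 2 h call of 0.21 (adjusted p 0.037) turned to -0.24 under quantile normalization and to -0.17 with equal library totals, and it was lost without EV 0 h replicate 1 (0.12, adjusted p 0.318) and without serum 2 h replicate 1 (0.14, adjusted p 0.257). Smc1a fell at 6 h, at 4146 and 4323 against 4799 and 5720 at 0 h (-0.31, SE 0.08, adjusted p 0.00342), and rose at 12 h to 7935 and 7573 (0.57, SE 0.08, adjusted p 1.15e-05). The 6 h fall was lost without EV 0 h replicate 2 (-0.18, adjusted p 0.0903).

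Both alternative subunits fell early. Stag2 went from 5815 and 6547 normalized counts to 3478 and 2843 at 2 h and 4209 and 4333 at 6 h, and stood at 6327 and 5706 at 12 h. The early libraries lay below all 0 h libraries, with log2 changes of -0.97 (SE 0.09, limma adjusted p 1.13e-08) and -0.53 (SE 0.09, adjusted p 2.91e-05). The 12 h libraries overlapped those of 0 h (-0.04, adjusted p 0.71). Stag1 was at 1717 and 1605 at 2 h, 1809 and 2003 at 6 h and 2480 and 2439 at 12 h, against 2026 and 2543 at 0 h. Its changes were -0.45 (SE 0.09, adjusted p 0.00034), -0.25 (SE 0.09, adjusted p 0.0247) and 0.12 (adjusted p 0.291), and the 6 h call was lost without EV 0 h replicate 2 (-0.09, adjusted p 0.438) and without serum 6 h replicate 1 (-0.18, adjusted p 0.175).

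Nipbl was the member that was lower at every serum time. It was at 5005 and 4251 normalized counts at 2 h, 4243 and 5178 at 6 h and 4832 and 4654 at 12 h, against 6057 and 6125 at 0 h. No serum library reached a 0 h library. Log2 changes were -0.40 (limma adjusted p 0.00103), -0.38 (adjusted p 0.0019) and -0.36 (adjusted p 0.00288), each with an SE of 0.10, and the 6 h call was lost without serum 6 h replicate 1 (-0.23, adjusted p 0.0538). The cohesin loader is a pair of proteins, and its other gene, Mau2, was lower too, at -0.56 (limma adjusted p 4.41e-06), -0.37 (adjusted p 0.00045) and -0.45 (adjusted p 6.85e-05) in time order.

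Wapl and Pds5a were higher at every serum time. Wapl was at 4743 and 4683 normalized counts at 2 h, 3527 and 4047 at 6 h and 3431 and 3343 at 12 h, against 2723 and 3077 at 0 h. The highest level was thus at the first time, with log2 changes of 0.70 (SE 0.08, limma adjusted p 4.69e-07), 0.38 (SE 0.08, adjusted p 0.000497) and 0.23 (SE 0.08, adjusted p 0.0226). The 12 h call was lost without EV 0 h replicate 1 (0.14, adjusted p 0.233), without serum 12 h replicate 1 (0.21, adjusted p 0.0991) and without serum 12 h replicate 2 (0.25, adjusted p 0.0522). Under quantile normalization the 6 and 12 h calls of Wapl were lost as well, at 0.15 (adjusted p 0.0807) and 0.06 (adjusted p 0.461), as with equal totals, at 0.17 (adjusted p 0.0672) and 0.15 (adjusted p 0.117). Pds5a was at 6359 and 5973 at 2 h, 4200 and 4087 at 6 h and 5706 and 4929 at 12 h, against 3416 and 3159 at 0 h. It was high, then lower, then high again, with changes of 0.91 (SE 0.10, adjusted p 2.47e-07), 0.33 (SE 0.10, adjusted p 0.00743) and 0.69 (SE 0.10, adjusted p 1.09e-05). The 6 h call was lost without EV 0 h replicate 2 (0.28, adjusted p 0.0617), under quantile normalization (0.09, adjusted p 0.436) and with equal totals (0.12, adjusted p 0.314). Its paralog Pds5b did not pass at 2 h (-0.14, adjusted p 0.099) or 6 h (-0.17, adjusted p 0.0595) and rose at 12 h, to 6314 and 5931 against 4415 and 4927 (0.39, SE 0.08, adjusted p 0.000211).

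From 6 to 12 h of serum 8 members rose and 0 fell, against 19.3% of all genes called higher and 20.6% lower. The exceptions were Nipbl (0.02, limma adjusted p 0.906) and Wapl (-0.16, adjusted p 0.142). The step of Pds5a, 0.36 (adjusted p 0.00941), was lost without serum 6 h replicate 2 (0.34, adjusted p 0.0518) and without serum 12 h replicate 1 (0.25, adjusted p 0.126). The serum 12 h libraries were also set against the EV line kept in doxycycline for 12 h. They had no doxycycline themselves, so serum and the drug cannot be told apart here. Limma called 8 members higher and 2 lower, with 37.9% of all genes higher and 32.5% lower. The largest difference was that of Esco2, 3.11 (SE 0.35, adjusted p 2.86e-07), and the 2 lower ones were Nipbl (-0.36, adjusted p 0.00258) and Stag2 (-0.22, adjusted p 0.0301). The call of Stag2 was lost without EV 12 h replicate 1 (adjusted p 0.0868), EV 12 h replicate 2 (adjusted p 0.0855) or serum 12 h replicate 2 (-0.15, adjusted p 0.231). The higher calls of Stag1 (0.22, adjusted p 0.0481) and Rad21 (0.3, adjusted p 0.0164) were lost too, Stag1 without EV 12 h replicate 1 (0.13, adjusted p 0.314), serum 12 h replicate 1 (adjusted p 0.144), serum 12 h replicate 2 (adjusted p 0.102) or all 2 h libraries (adjusted p 0.0724), and with a per-line replicate block (adjusted p 0.0514), and Rad21 without EV 12 h replicate 1 (adjusted p 0.0755) or serum 12 h replicate 1 (adjusted p 0.161).

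**Figure D3:**
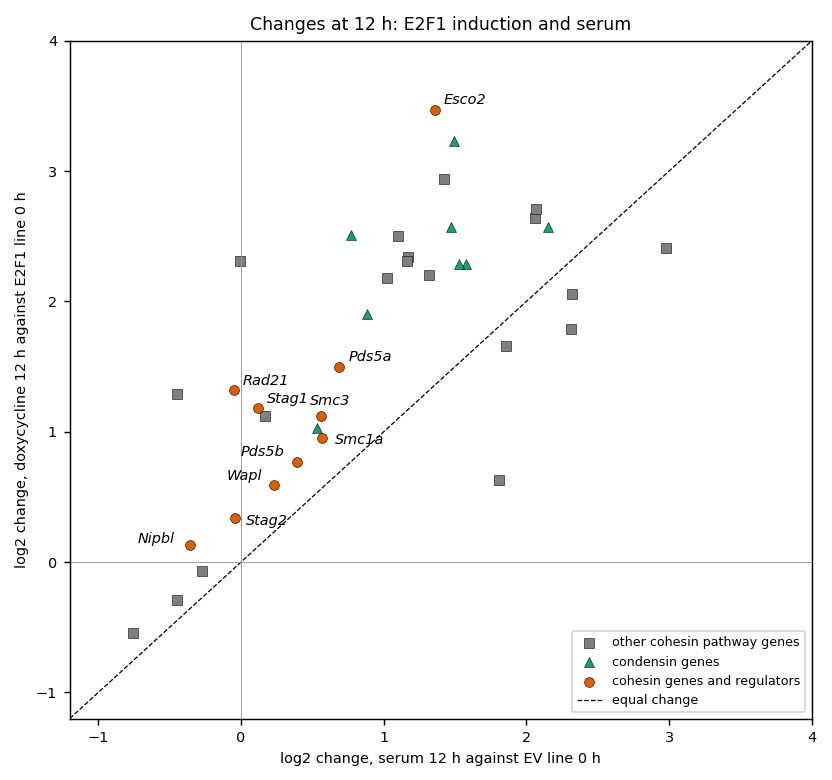
Log2 change at 12 h in the E2F1 line with doxycycline (vertical axis) against log2 change at 12 h in the EV line with serum (horizontal axis), each against its own 0 h libraries, for the 10 cohesin genes (labelled circles), 19 other genes of the cohesin pathway (squares) and 8 condensin genes (triangles). The circles all lie above the dashed line of equal change, from Wapl, 0.36 above it, to Esco2, 2.11 above it.

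Whether E2F1 and serum moved the members alike was tested as the change under E2F1 minus that under serum. Each change was taken from the 0 h libraries of its own line. The serum libraries had no doxycycline, so the line, the drug and the stimulus cannot be told apart. All 10 members had the larger change under E2F1 at 6 h, against 30.3% of all genes higher and 27.6% lower, and again all 10 at 12 h, against 25.0% and 23.8%. At 12 h the difference was 2.11 for Esco2 (SE 0.49, limma adjusted p 0.0017), 1.36 for Rad21 (SE 0.15, adjusted p 9.06e-07) and 1.06 for Stag1 (SE 0.13, adjusted p 4.42e-06). It was 0.81 for Pds5a (SE 0.14, adjusted p 0.000161) and 0.56 for Smc3 (SE 0.12, adjusted p 0.000942). Nipbl differed by 0.49 (adjusted p 0.00542), Smc1a by 0.38 (adjusted p 0.0125), Pds5b by 0.38 (adjusted p 0.00698), Stag2 by 0.38 (adjusted p 0.0164) and Wapl by 0.36 (adjusted p 0.0161). Of these 12 h calls, Wapl was lost without E2F1 12 h replicate 1 (0.29, adjusted p 0.0768) or EV 0 h replicate 2 (0.27, adjusted p 0.0839), Stag2 without E2F1 0 h replicate 1 (0.32, adjusted p 0.0717), EV 0 h replicate 2 (0.29, adjusted p 0.0807) or serum 12 h replicate 2 (0.3, adjusted p 0.0803), and Smc1a without EV 0 h replicate 2 (0.25, adjusted p 0.0834).

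At 6 h the difference was 3.19 for Esco2 (SE 0.49, limma adjusted p 2.39e-05), 1.41 for Pds5a (SE 0.14, adjusted p 1.96e-07) and 1.19 for Pds5b (SE 0.11, adjusted p 4.76e-08). It was 0.90 for Stag2, 0.87 for Rad21, 0.81 for Smc3, 0.67 for Stag1, 0.63 for Nipbl and 0.62 for Smc1a, with adjusted p of at most 0.000606. Wapl, which rose under both stimuli, had the smallest, 0.37 (adjusted p 0.0108), and its call was lost without EV 0 h replicate 2 (0.29, adjusted p 0.0617) or serum 6 h replicate 1 (0.28, adjusted p 0.0618).

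The balance between paralogs is given as a ratio of normalized counts within each library, without a test, since groups held 2 libraries. Stag1/Stag2 was 0.389 and 0.365 in the E2F1 line at 0 h and 0.401 and 0.380 at 6 h, and rose out of that range to 0.700 and 0.652 at 12 h. In the EV line it was 0.348 and 0.388 at 0 h, 0.285 and 0.320 at 12 h of doxycycline, and 0.494 and 0.565 at 2 h of serum. The ratio was thus high at 2 h of serum while both genes were low, and high at 12 h of E2F1 while Stag1 was high. In E2F1 cells Pds5a/Pds5b was 0.934 and 0.820 at 0 h, 1.53 and 1.35 at 6 h and 1.58 and 1.33 at 12 h. Under serum it was 1.39 and 1.53 at 2 h, 1.02 and 0.979 at 6 h and 0.904 and 0.831 at 12 h, against 0.774 and 0.641 at EV 0 h. In E2F1 cells Rad21/Smc3 was 1.51 and 1.57 at 0 h, 1.01 and 0.976 at 6 h and 1.78 and 1.75 at 12 h, a dip at the time when Smc3 had risen and Rad21 had risen little. At 2 h of serum the same ratio was 0.664 and 0.676, the lowest of any group. The units are counts per gene and not per length, so a ratio says nothing of which paralog is more abundant.

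**Figure D4:**
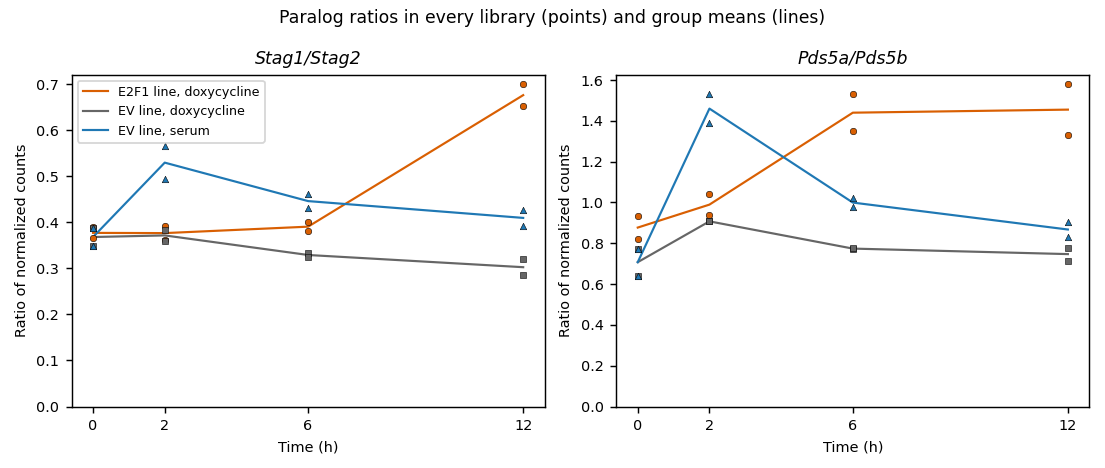
Ratio of normalized counts of Stag1 to Stag2 (left) and Pds5a to Pds5b (right) against hours of treatment, vertical axes from 0; points are libraries and lines join group means for the E2F1 line with doxycycline, the EV line with doxycycline and the EV line with serum. Stag1/Stag2 peaks at 0.700 and 0.652 in the E2F1 12 h libraries, and Pds5a/Pds5b is above 1.3 in the E2F1 6 and 12 h and the serum 2 h libraries.

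Further genes of the cohesin pathway were taken from a list of 24, of which 19 were in the table. In the E2F1 line 12 of 19 rose and 0 fell at 6 h, with a median log2 change of 0.74, and 16 rose and 2 fell at 12 h, with a median of 2.18. Under serum 13 rose and 2 fell at 12 h, with a median of 1.17, while at 2 h 1 rose and 10 fell and at 6 h 0 rose and 9 fell. In the EV line at 12 h of doxycycline 0 rose and 10 fell. The share of all genes called in each direction stands with the members above. Cdca5 encodes sororin, which protects acetylated cohesin from release. Under E2F1 it went from 634 and 477 normalized counts at 0 h to 1433 and 1138 at 6 h and to 3451 and 3420 at 12 h, with log2 changes of 1.21 (limma adjusted p 0.000866) and 2.64 (adjusted p 1.12e-07). Under serum it rose by 2.06 at 12 h (adjusted p 1.97e-06), and the difference of 0.58 between the stimuli did not pass (adjusted p 0.207).

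Genes of the list that act at the replication fork differed in time course under E2F1. Wdhd1, a fork adaptor, was at 695 and 644 normalized counts at 0 h, 4556 and 4425 at 6 h and 3487 and 3641 at 12 h in the E2F1 line, with log2 changes of 2.74 (limma adjusted p 6.72e-09) and 2.41 (adjusted p 2.72e-08). Dscc1, of the alternative clamp loader, rose by 2.20 (adjusted p 3.46e-05) and 2.06 (adjusted p 4.59e-05). Neither moved past the threshold from 6 to 12 h (-0.33, adjusted p 0.237, and -0.14, adjusted p 0.779). Chtf18, of the same clamp loader as Dscc1, rose further between these times, by 1.05 (adjusted p 0.000669), as did the helicase gene Ddx11, by 0.91 (adjusted p 0.000506), and Tipin, by 0.43 (adjusted p 0.0209), while Timeless was at 0.07 (adjusted p 0.724). Espl1, which encodes separase, the protease that cuts Rad21, rose by 0.77 (6 h, adjusted p 0.0161) and 2.34 (12 h, adjusted p 3.05e-07), a step of 1.57 between the times (adjusted p 0.000163). Plk1, a mitotic kinase, was at 0.51 (6 h, adjusted p 0.102) and 2.31 (12 h, adjusted p 4.32e-07). Under serum at 12 h Plk1 was at -0.01 (adjusted p 0.971), and its change was larger under E2F1 by 2.32 (adjusted p 4.33e-05).

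Some genes of the list fell or returned. Mau2 fell by 0.29 on the log2 scale at 12 h in the E2F1 line (limma adjusted p 0.00419), from 3559 and 3790 normalized counts to 2971 and 3053, while its partner Nipbl did not pass. Hdac8, the deacetylase that recycles Smc3, fell by 0.54 (adjusted p 0.0455), from 422 and 480 to 310 and 310, and fell at every serum time, by 1.48 at 2 h (adjusted p 1.05e-05). Esco1, the other acetyltransferase of Smc3, rose by 0.56 at 6 h (adjusted p 0.0115) and was at -0.07 at 12 h (adjusted p 0.757), when Esco2 stood at 3.47. Ctcf, whose protein stops cohesin at loop anchors, rose under E2F1 by 0.41 (6 h, adjusted p 0.000469) and 1.12 (12 h, adjusted p 3.33e-09). It was at 0.17 after 12 h of serum (adjusted p 0.0793), and the difference between the stimuli was 0.95 (adjusted p 3.59e-06).

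The related SMC complexes moved in the same comparisons. All 8 condensin genes rose at 12 h of E2F1 (median log2 change 2.40, lowest 1.03) and all 8 at 12 h of serum (median 1.48). Of 8 measured SMC5/6 genes 8 and 7 rose (medians 1.09 and 0.59). Among all genes 31.8% and 36.0% were called higher. The member medians in these comparisons, 1.03 and 0.31, lie below those of the condensin genes, and the difference between the lists was not tested.

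Likeness of pattern was measured by Pearson's r of group means of log2(value + 1) over the 11 groups, for members whose group means spanned at least 1 on that scale, which left out Nipbl. Groups share lines, 0 h libraries and scaling, and the values describe these groups only. The 3 genes most like Esco2 were Ndc80 (0.995), Ckap2l (0.985) and Ska1 (0.985). For Rad21 they were Nusap1 (0.985), Mroh2a (0.980) and Kif23 (0.979), and for Smc1a Kif15 (0.994), Cenpq (0.990) and Tubgcp6 (0.984). For Stag1 they were Hjurp (0.982), Ctcf (0.981) and Cntrob (0.979). Smc3 was most like Smarcc1 (0.990), Faf1 (0.989) and Eed (0.987), Pds5a most like Rab31 (0.996), Gjc1 (0.991) and Lmbrd2 (0.990), and Pds5b most like Tubgcp4 (0.987), Mrps24 (0.986) and Siva1 (0.982). Stag2 was most like C2cd3 (0.982), Ptpra (0.981) and Acvr2b (0.968), and Wapl most like Kbtbd2 (0.987), Vkorc1l1 (0.985) and Fam20c (0.984). Among the members themselves r was 0.95 for Rad21 with Stag1 and for Smc1a with Esco2, 0.94 for Smc3 with both Pds5a and Pds5b, and -0.16 for Stag2 with Wapl.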

How the data were processed

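The authors deposited 1 table of 22 libraries whose name calls its values normalized counts. Because the authors deposited them scaled and rounded to whole numbers, they were treated as a score, and no count model was fitted. Per the submitters' processing notes, FastQC, Trimmomatic, HISAT2, featureCounts, DESeq2 and the build mm10 were used; versions, order and use of strand are not given in the sources used here. The authors' deposited tables of comparisons give a log2 fold change and an adjusted p-value for each listed gene, and these were only quoted.

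The limma package 3.58.1 in R 4.3.3 was fitted to log2(value + 1), with a mean for each of 11 groups, 11 residual degrees of freedom, moderation with a mean-variance trend, two-sided tests and Benjamini-Hochberg adjustment over all 11208 genes, at a threshold of 0.05. A filter of at least 10 in 2 libraries removed no gene. Original depth per library is unknown. In simulated data for the E2F1 6 h comparison over 11208 genes, 83 of 100 genes changed by a log2 of 1 and 46 of 100 changed by 0.5 were called, with 10 false calls. Only 200 genes were changed there, while in the data 3230 were called higher and 2569 lower. These shares therefore need not hold for the data.

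All 10 members were named in every comparison, with E2f1, Ccne1 and Mcm3 as checks, any gene of the pathway list, and for each member the 3 genes most like it. Members and lists were chosen with earlier results of these data known. Alternatives were a pseudocount of 8, no filter, a mean of at least 500, quantile normalization, equal totals, the replicate number as a block over all libraries or per line, a 2-fold rule, only the groups compared in the fit, and leaving out each replicate. Leaving out all 2 h libraries was an alternative chosen after seeing the data. A group that loses a library keeps 1, which is assumed to vary like the other groups. Positions are from GENCODE M21, which held 10977 of the 11208 identifiers in the same version. Python 3.11.15, pandas 2.3.3, numpy 2.4.6 and matplotlib 3.10.9 made the tables and figures.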

Additional observations from a re-analysis of the deposited data

Results flagged for a closer look

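Changes under E2F1 and in the control arms differed by a test of the difference itself. All values are differences of log2 changes from limma with adjusted p over all genes, and every member listed had the larger change in the E2F1 line.

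Between the lines under doxycycline, the 6 h difference was 0.37 for Smc1a, 0.92 for Smc3, 0.43 for Rad21, 0.43 for Stag1, 0.66 for Wapl, 1.71 for Pds5a, 1.13 for Pds5b and 2.17 for Esco2, with limma adjusted p from 6.30e-08 to 0.0337. At 12 h it was 1.14 for Smc1a, 1.17 for Smc3, 1.67 for Rad21, 1.28 for Stag1, 0.69 for Wapl, 1.54 for Pds5a, 0.89 for Pds5b and 5.22 for Esco2, with adjusted p from 8.17e-08 to 8.97e-05. In the EV line Esco2 itself was lower at 12 h, which adds to its 12 h difference. Stag2 and Nipbl did not differ past the threshold at either time.

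Between E2F1 induction and serum, the 6 h difference was 0.62 for Smc1a, 0.81 for Smc3, 0.87 for Rad21, 0.67 for Stag1, 0.90 for Stag2, 0.63 for Nipbl, 0.37 for Wapl, 1.41 for Pds5a, 1.19 for Pds5b and 3.19 for Esco2, with limma adjusted p from 4.76e-08 to 0.0108. At 12 h it was 0.38 for Smc1a, 0.56 for Smc3, 1.36 for Rad21, 1.06 for Stag1, 0.38 for Stag2, 0.49 for Nipbl, 0.36 for Wapl, 0.81 for Pds5a, 0.38 for Pds5b and 2.11 for Esco2, with adjusted p from 9.06e-07 to 0.0164. At 6 h Rad21, Smc1a, Stag1, Stag2, Nipbl and Esco2 were called in opposite directions under the 2 stimuli. Of these, only Esco2 kept both calls under every alternative setting. Opposite calls over all genes were not counted, so these members have no share to be set against. At 6 h of E2F1 28.8% of all genes were called higher and 22.9% lower. The shares at 6 h of serum were 36.5% and 31.0%. The E2F1 6 h calls of Rad21, Smc1a, Stag1, Stag2 and Nipbl were each lost under some setting, as were the serum 6 h calls of Smc1a, Stag1 and Nipbl.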

How the results depend on the processing

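Of 180 member results (10 members in 18 comparisons), 103 passed the threshold. Apart from the 2-fold rule, 28 of these lost the call under at least 1 setting and 2 of them turned in sign. The pseudocount of 8 and a mean of at least 500 changed no call. The filter had removed no gene, so the fit without it was the main fit and could not differ. Under quantile normalization the count of members changed was 5 for E2F1 6 h (10 with the deposited scaling), 1 for EV doxycycline 2 h (0) and 5 for the 6 h difference between the lines (8). Equal totals and the fit of only the groups compared also gave 5 for that difference, and the latter gave 0 for EV doxycycline 12 h and for the starved lines. Without all 2 h libraries the starved lines gave 0. When the fit held just the groups being compared, calls were also lost for Smc3 at serum 2 h (adjusted p 0.0863), Smc1a and Stag1 at serum 6 h (0.0606 and 0.161), Wapl at serum 12 h (0.078) and in the 6 h difference from serum (0.0506), and Stag1 in serum against doxycycline (0.0703). In the latter comparison Rad21 and Stag1 were lost under quantile normalization (adjusted p 0.342 and 0.522) and with equal totals (0.0737 and 0.224), which also ended the fall of Pds5b from 6 to 12 h of E2F1 (0.0649). With at least a 2-fold change the counts were 3 and 5 for E2F1 6 and 12 h, and 1 at each serum time. They were 3 for the 6 h line difference, 3 for each difference from serum and 0 for the starved lines. Both 12 h against 6 h steps, and serum against doxycycline, gave 1 each. Among all 11208 genes, this rule gave 968 higher and 147 lower at E2F1 6 h and 1193 and 609 at 12 h. At serum 2, 6 and 12 h it gave 1543 and 1607, 1197 and 1311, and 1151 and 999. The 6 h line difference had 1013 and 144. Those from serum had 1685 and 1182 at 6 h and 1112 and 914 at 12 h. The starved lines had 148 and 60, and serum against doxycycline 1522 and 1226. The 12 h against 6 h steps had 290 and 138 (E2F1) and 601 and 239 (serum).

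Under quantile normalization Nipbl turned to -0.01 at E2F1 6 h, -0.08 at E2F1 12 h and -0.06 in the 12 h line difference, Stag2 to -0.03 in the 12 h line difference and 0.03 from 6 to 12 h of E2F1, Smc3 to -0.24 and -0.15 at serum 2 and 6 h, and Stag1 to -0.03 at serum 12 h. With equal totals Smc3 turned to -0.17 and -0.06 at serum 2 and 6 h and Stag2 to 0.03 from 6 to 12 h of E2F1. Equal totals shifted the median of all genes by -0.375 at serum 2 h, -0.214 at serum 6 h, -0.116 at E2F1 6 h and 0.133 between 6 and 12 h of serum, and quantile normalization by -0.105 at E2F1 6 h. In the line differences the shift was -0.105 (quantile) and -0.109 (equal totals) at 6 h, and -0.115 (quantile) at 12 h. Relative to the median of all genes, Smc3 at serum 2 h was at 0.18 with the deposited scaling, 0.17 with equal totals and -0.19 under quantile normalization, and Nipbl at E2F1 6 h was at 0.28 and, under quantile normalization, 0.13. The split of all genes at E2F1 6 h was 3230 higher and 2569 lower, 2657 and 3820 under quantile normalization and 2683 and 3781 with equal totals. With equal totals it went from 4200 and 3752 to 2611 and 5907 at serum 2 h, from 4093 and 3470 to 2914 and 4772 at serum 6 h, from 2164 and 2308 to 3184 and 1392 between 6 and 12 h of serum, from 1688 and 2265 to 2130 and 1771 between these times of E2F1, and from 993 and 691 to 1345 and 524 in the starved lines. For the 6 h line difference it was 2493 and 1373, 2068 and 2583 under quantile normalization and 2101 and 2251 with equal totals, and for the 12 h one 3059 and 2606 against 2659 and 3457 under quantile normalization. The cause of each was not tested.

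Leaving out each library gave counts of 5 to 8 for the 6 h line difference, 0 to 1 for the starved lines and 0 to 3 for EV doxycycline 12 h, where 3 came without EV 0 h replicate 1. Changes that turned in sign ran from -0.05 to 0.28 for Stag1, -0.22 to 0.12 for Rad21 and -0.12 to 0.05 for Stag2 at serum 12 h, -0.75 to 0.24 for Esco2 at EV doxycycline 2 h, -0.21 to 0.04 for Smc1a at serum 2 h and -0.13 to 0.16 for Nipbl from 6 to 12 h of serum. None of these 6 had passed the threshold. Groups shared replicate numbers, and the labels do not say that a number marks a pair. Deviations of same-numbered libraries correlated with r from -0.28 to 0.45 over 55 pairs of groups, with a median of 0.03, and 17 were over 0.1. Between the 0, 6 and 12 h doxycycline groups of a line all exceeded 0.1 (0.14, 0.27 and 0.36 in the E2F1 line and 0.3, 0.31 and 0.45 in the EV line), a hint from the data and not from the design, while pairs with the E2F1 2 h group in that line ran from -0.28 to -0.15. With a replicate block within each line 127 of 129 results stood as before, 1 newly passed and 1 was lost, Stag1 in serum against doxycycline at 12 h (0.22, adjusted p 0.0514). With the replicate block over all libraries 128 of 129 results stood as before and 1 newly passed, and the count of members changed stayed at 10 for E2F1 6 h and 9 for E2F1 12 h. The scale of the deposited values gives no depth, so the counting error behind the lowest values, those of Esco2 under serum, is unknown.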
